A study of Mus musculus with 12 samples.

Results

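mmu-miR-23a-3p, mmu-miR-23b-3p, mmu-miR-27a-3p, mmu-miR-27b-3p and mmu-miR-24-3p, written below without the species prefix, are the mature guide strands of a pair of paralogous miRNA clusters. Their rows were taken by name from a table of 1978 annotated mouse miRNAs, of which 501 had a count in some library. All 5 passed the low-count filter that left 132 miRNAs for testing. The table holds small RNA counts from extracellular vesicles, the membrane particles that cells release into the medium. They were shed by bone marrow mesenchymal stem cells in culture, stroma with the capacity to become bone, cartilage or fat, and the mice were C57BL/6. The 12 libraries form 4 groups, DZ, aFM, NY and PLL, with replicates A, B and C in each. Every library carries the same label for treatment, an intervention with antigen, and no label expands the names DZ, aFM or NY or calls a group unstimulated. The design text speaks of 48 h with 2 μg/ml of hydatid preparations called ESPs, HCF or pLL, so only PLL shares a name with one of them. Whether a replicate is a separate culture or animal is not in the labels, so the p-values cover only library-to-library spread, part or all of which may be technical.

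In the mouse, one cluster encodes miR-23a, miR-27a and one copy of miR-24 (Mir23a, Mir27a and Mir24-2), and the other encodes miR-23b, miR-27b and the other copy (Mir23b, Mir27b and Mir24-1). Each cluster is cut from one primary transcript, so its members can be made together, whereas stability and loading of each mature strand are set separately. In bone cells miR-23a represses Runx2, the master transcription factor of osteoblasts. miR-27 represses Pparg, the master factor of fat cells. miR-23 and miR-27 also promote vessel sprouting, and miR-24 represses cell cycle genes.

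In GRCm38 the 23a cluster lies on chromosome 8, plus strand, within 404 bases, and Mir24-2 overlaps an exon of the long noncoding RNA gene Gm26532 (GENCODE M21). The 23b cluster lies on chromosome 13, plus strand, within 792 bases, inside the protein-coding gene 2010111I01Rik and, on the opposite strand, within an intron of Fancc. Mir23b is intronic there, and Mir27b and Mir24-1 overlap an annotated exon of 2010111I01Rik. RefSeq mature sequences (GRCm38.p6 table) were matched for 4 of the 5 members. They are shown to make clear which reads tell the paralogs apart, with the seed, bases 2 to 8 from the 5′ end, in capitals.
miR-23a-3p: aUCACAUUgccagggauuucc
miR-27a-3p: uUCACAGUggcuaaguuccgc
miR-27b-3p: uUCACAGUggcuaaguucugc
miR-24-3p: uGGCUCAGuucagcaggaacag
No sequence was matched for the fifth member, miR-23b-3p, so its seed was not compared with that of miR-23a-3p. miR-27a-3p and miR-27b-3p are each 21 bases long and share the seed. They differ at 1 base, C19U (base of miR-27a-3p, position from the 5′ end, base of miR-27b-3p), so only reads that cover that position assign a count to one cluster. miR-24-3p has the same sequence from both clusters, and its counts cannot be split between them. The 5′ arms can be told apart past base 16 and are shown for that reason.
miR-24-1-5p: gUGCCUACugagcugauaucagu
miR-24-2-5p: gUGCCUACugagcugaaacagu

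Libraries held 68647 to 214303 counts in all and 17607 to 60436 annotated counts, and annotated miRNAs took 10.3% to 60.7% of a library, the highest share being that of PLL replicate A. Levels are given as CPM, a library's count for a miRNA over its TMM-scaled total of tested miRNAs. PLL replicate A stood apart from the other PLL libraries in the levels of the members. Over all 132 miRNAs tested, its log2 CPM correlated with replicates B and C at r = 0.83 and 0.86, beside 0.87 between B and C. Of these miRNAs 29 lay over 2 times the mean of PLL replicates B and C in it, and 14 under 1/2 of that mean. The highest level of all 12 libraries lay in PLL replicate A for 35 (26.5%) of the miRNAs, as for 5 of the 5 members. Its members stood between 2.23-fold (miR-24-3p) and 5.43-fold (miR-27b-3p) above the mean of PLL replicates B and C, while the median tested miRNA lay at -0.079 on the log2 scale. Log2 fold changes, calls and medians that involve PLL are therefore given with all libraries and, beside them, without this library, where 146 miRNAs passed the filter.

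miR-27b-3p was the most abundant member, with a mean of 16135 CPM over the 12 libraries and rank 17 among the 132 miRNAs. miR-27a-3p followed at 6341 CPM (rank 31), then miR-24-3p at 4146 CPM (rank 36), miR-23b-3p at 2775 CPM (rank 46) and miR-23a-3p at 1421 CPM (rank 62). The rows are short mature strands, so these CPM levels were set side by side without a length correction. How reads that fit both paralogs were counted is not stated, and the levels of paralogs beside each other may depend on it. The order from miR-27b-3p down to miR-23a-3p held in 11 of the 12 libraries, and in DZ replicate B miR-23b-3p stood above miR-24-3p. Outside PLL replicate A, the lowest miR-27b-3p library (9148 CPM) lay above the highest miR-27a-3p library (7241 CPM). The ranges of miR-27a-3p and miR-24-3p overlapped, from 4482 and up to 5557 CPM, as did those of miR-24-3p and miR-23b-3p and of miR-23b-3p and miR-23a-3p. The members together took 3.79% ± 2.35 of annotated counts in PLL, against 2.65% ± 0.101 in DZ, 2.46% ± 0.341 in aFM and 2.69% ± 0.377 in NY (SD, n = 3). In PLL that share was 6.49% in replicate A (95% exact interval 6.30% to 6.69%, counting error only), 2.46% in replicate B and 2.41% in replicate C, and as shares of annotated counts the last 2 values lay within the range of the other groups. As a share of all counts, predicted loci included, the members took 3.94%, 0.719% and 1.00% in PLL replicates A, B and C, above the at most 0.690% of every other library. The annotated share of a library, 29.2% to 60.7% in PLL and 10.3% to 30.6% elsewhere, moved with this, and its part was not tested.

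**Figure D1:**
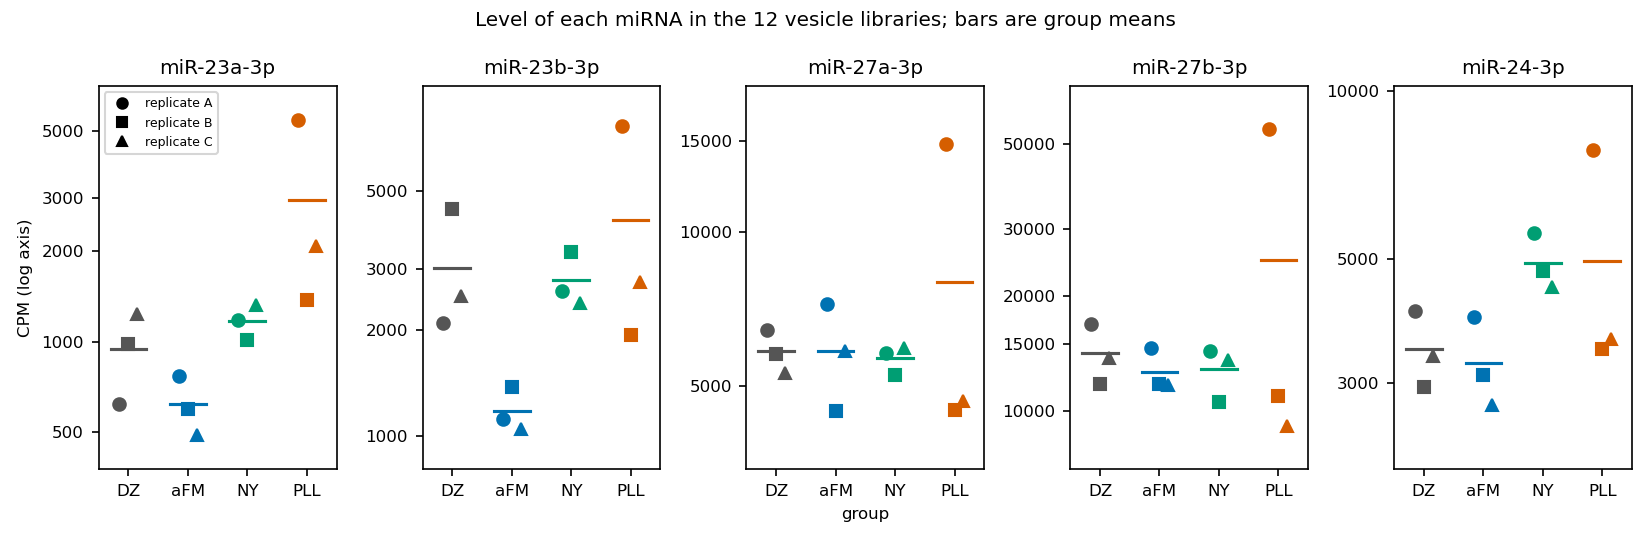
CPM (log axis, one scale per panel) of the 5 members in the 12 libraries by group; points are libraries and horizontal bars are group means. PLL replicate A is the highest point in every panel, and the 3 aFM libraries lie below all others for miR-23b-3p.

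The joint test asked whether a miRNA differed anywhere among the 4 groups. Of the 132 miRNAs 12.1% passed it, and of the 5 members 1 did, miR-23a-3p (edgeR quasi-likelihood, adjusted p = 0.0279). The adjusted p was 0.0905 for miR-23b-3p, 0.267 for miR-24-3p, 0.326 for miR-27b-3p and 0.678 for miR-27a-3p. The call for miR-23a-3p was lost when NY replicate A (adjusted p = 0.0597), PLL replicate A (0.0720) or any of the 3 aFM libraries (0.0546, 0.0767 and 0.0833 for A, B and C) was left out. Of 146 miRNAs 13.0% passed the joint test without PLL replicate A. Without PLL replicate A or B miR-23b-3p passed instead or as well (adjusted p = 0.0460 and 0.0331). Over all 19 alternatives its adjusted p ran from 0.00999 to 0.192, and that of miR-23a-3p from 0.00125 to 0.0833.

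Pairwise, members were called only in PLL against aFM, where 2 of the 5 (miR-23a-3p and miR-23b-3p) were higher in PLL at an adjusted p under 0.05 and none was lower. Of the 132 miRNAs 9.09% were called there, 6.06% as higher and 3.03% as lower in PLL. The same 2 members were the ones whose PLL and aFM libraries did not overlap, beside 38.6% of all miRNAs (21.2% higher and 17.4% lower in PLL). With all libraries their count is a larger share than the background of calls, and it rests on 2 paralogs. When PLL replicate A was left out, 1 of the 5 was called, miR-23a-3p, beside 8.22% of 146 miRNAs.

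In the other 5 comparisons 0 of the 5 members passed. In aFM against DZ 18.9% of all miRNAs were called (9.09% higher and 9.85% lower in aFM), and 1 member, miR-23b-3p, lay lower without overlap, beside 34.1% of all miRNAs (18.2% higher and 15.9% lower). In NY against aFM 3.79% were called (0.758% higher and 3.03% lower in NY), and 3 members lay higher without overlap (miR-23a-3p, miR-23b-3p and miR-24-3p), beside 43.9% of all miRNAs (24.2% higher and 19.7% lower). NY against DZ had 0.758% called, that miRNA higher in NY, and 1 member higher without overlap (miR-24-3p), beside 15.9% (9.85% higher and 6.06% lower). At an unadjusted p under 0.05, 1 member passed in aFM against DZ and 1 in NY against aFM (miR-23b-3p in both) and 0 in NY against DZ, beside 30.3%, 27.3% and 14.4% of all miRNAs.

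In the PLL comparisons with DZ and NY, miR-23a-3p was the 1 member without overlap and the 1 member with an unadjusted p under 0.05, which 28.0% and 21.2% of all miRNAs had. In PLL against DZ 3.79% of all miRNAs were called (0.758% higher and 3.03% lower in PLL) and 21.2% did not overlap, 10.6% in each direction. In PLL against NY 6.82% were called (3.03% higher and 3.79% lower in PLL) and 31.8% did not overlap (16.7% higher and 15.2% lower). When PLL replicate A was left out, 0 members were called in either, beside 3.42% of 146 miRNAs against DZ and 4.79% against NY. The members' median log2 fold change was 0.98 in PLL against aFM, 0.57 in PLL against NY and 0.53 in PLL against DZ, beside 0.31, 0.17 and 0.22 over all tested miRNAs. Without PLL replicate A these medians of the members were 0.047, -0.30 and -0.39, beside -0.027, 0.038 and -0.035 over all miRNAs, so 2 of the 3 changed sign. In NY against aFM the members' median was 0.60 beside 0.18, in NY against DZ -0.043 beside 0.022, and in aFM against DZ -0.16 beside -0.14. Comparisons that share a group use the same libraries and are not independent of each other.

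miR-23a-3p, which represses Runx2 in bone cells, was lowest in aFM and highest in PLL. It stood at 771, 598 and 491 CPM in aFM replicates A, B and C and at 619, 983 and 1232 CPM in DZ. NY held 1179, 1009 and 1318 CPM, and PLL held 5406, 1378 and 2069 CPM. Every PLL library lay above every library of the other groups, and every NY library above every aFM library, whereas DZ overlapped both aFM and NY. These levels rest on 10 to 64 counts per library, apart from 235 in PLL replicate A. PLL exceeded aFM by 2.26 ± 0.49 on the log2 scale (SE; adjusted p = 0.0140), with means of 2951 ± 2154 and 620 ± 141 CPM (SD, n = 3). Without PLL replicate A the difference was 1.41 ± 0.37 and still passed (adjusted p = 0.0363). With aFM replicate B left out the adjusted p was 0.0866 and with aFM replicate C left out 0.0891, so the call was lost, and over the alternatives the adjusted p ran from 0.00108 to 0.0891.

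miR-23a-3p was not called in the other comparisons. Against DZ, PLL was higher by a log2 fold change of 1.63 ± 0.48 (SE; adjusted p = 0.0647), which missed the threshold. Without PLL replicate A this was 0.79 ± 0.37 (adjusted p = 0.256), and without PLL replicate B it passed (adjusted p = 0.0293), within a range of 0.0133 to 0.256 over the alternatives. Against NY, PLL stood at a log2 fold change of 1.34 ± 0.47 (adjusted p = 0.111), and at 0.56 ± 0.36 without PLL replicate A. NY stood at 0.92 ± 0.49 against aFM (adjusted p = 0.243) and at 0.29 ± 0.49 against DZ (adjusted p = 0.984). aFM stood at -0.63 ± 0.51 against DZ (adjusted p = 0.570).

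miR-23b-3p, its paralog from the other cluster, was lowest in aFM. The aFM libraries A, B and C held 1114, 1382 and 1044 CPM, against 2106, 4451 and 2502 CPM in DZ. NY held 2593, 3342 and 2399 CPM, and PLL held 7684, 1939 and 2747 CPM. No aFM library overlapped any library of another group, while DZ, NY and PLL overlapped one another. The counts behind these levels were 26, 37 and 34 in aFM and 34 to 334 elsewhere. PLL exceeded aFM by a log2 fold change of 1.81 ± 0.48 (SE; adjusted p = 0.0340), and this was the second member called there. Without PLL replicate A the difference was 0.92 ± 0.33 and did not pass (adjusted p = 0.100). Leaving out any 1 of the aFM libraries also ended the call (adjusted p = 0.120, 0.110 and 0.140 for A, B and C), as did leaving out NY replicate A (0.0712) or C (0.0641). RLE factors (0.0513) and the replicate letter as a block (0.0611) ended it too, in a range over the alternatives of 0.00510 to 0.140.

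The lower level of miR-23b-3p in aFM was not called against DZ or NY with all libraries. Against DZ the log2 fold change was -1.35 ± 0.49 (SE; adjusted p = 0.0728). Without PLL replicate A, a library of neither group, it was -1.33 ± 0.31 and passed (adjusted p = 0.0152). It also passed without PLL replicate B (adjusted p = 0.0448), and over the alternatives the adjusted p ran from 0.0152 to 0.288. NY against aFM gave 1.23 ± 0.48 (adjusted p = 0.126) and, without PLL replicate A, 1.16 ± 0.30 (adjusted p = 0.0317, in a range of 0.0317 to 0.304). NY against DZ gave a log2 fold change of -0.12 ± 0.47 (adjusted p = 0.984). PLL stood at 0.45 ± 0.47 against DZ and 0.57 ± 0.46 against NY (adjusted p = 0.542 and 0.442), and at -0.41 ± 0.33 and -0.24 ± 0.32 without replicate A.

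**Figure D2:**
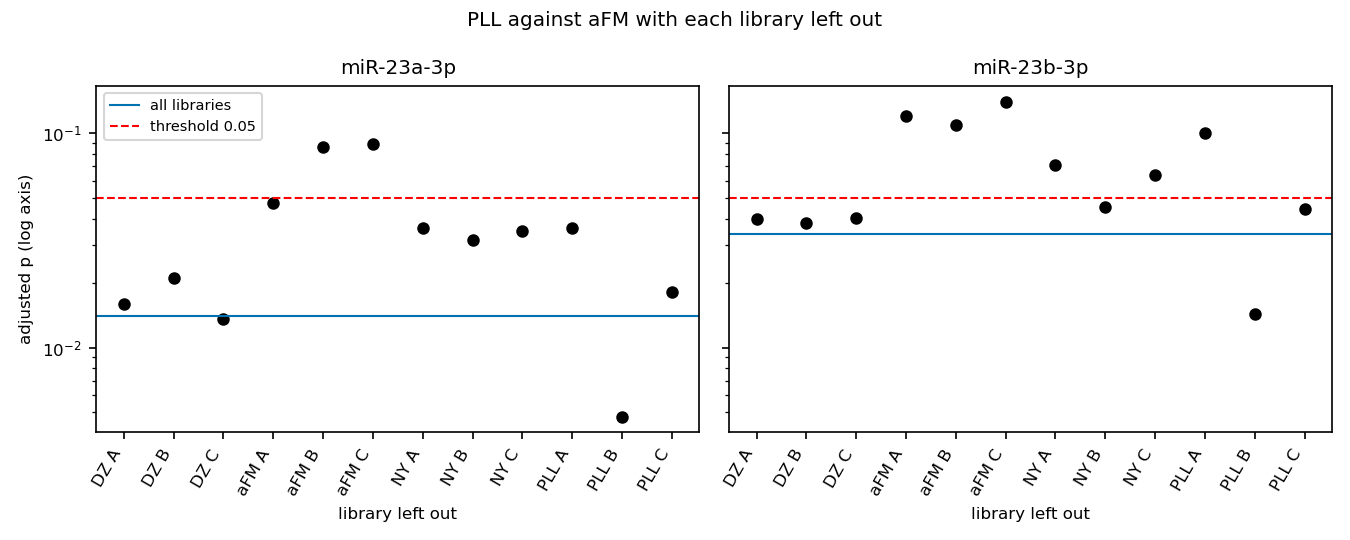
Adjusted p (log axis) of PLL against aFM for miR-23a-3p and miR-23b-3p with each of the 12 libraries left out in turn; the solid line is the value with all libraries and the dashed line the threshold of 0.05. miR-23a-3p stays under the threshold in 10 of 12 cases and miR-23b-3p in 6 of 12.

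miR-27a-3p and miR-27b-3p, which share a seed and repress Pparg, differed little between DZ, aFM and NY. miR-27a-3p stood at 6442, 5781 and 5312 CPM in DZ and at 7241, 4482 and 5864 CPM in aFM. NY held 5793, 5265 and 5946 CPM, and PLL held 14793, 4491 and 4687 CPM. All 4 groups overlapped. Between DZ, aFM and NY its log2 fold changes lay between -0.048 and 0.0046, each with an SE of 0.41. PLL stood at a log2 fold change of 0.45 ± 0.41 against DZ (adjusted p = 0.489), and at -0.39 ± 0.23 without replicate A. Against aFM and NY it stood at 0.45 ± 0.41 and 0.50 ± 0.41 (adjusted p = 0.457 and 0.444), and at -0.42 ± 0.23 and -0.30 ± 0.23 without replicate A.

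miR-27b-3p stood at 16911, 11735 and 13781 CPM in DZ and at 14610, 11729 and 11666 CPM in aFM. NY held 14347, 10562 and 13616 CPM, and PLL held 54570, 10947 and 9148 CPM. The groups overlapped here too, and PLL held both the highest library and the lowest, replicate C. PLL against aFM gave a log2 fold change of 0.98 ± 0.54 with all libraries (adjusted p = 0.207) and -0.40 ± 0.22 without replicate A (adjusted p = 0.248). Against DZ the values were 0.82 ± 0.54 and -0.54 ± 0.22 (adjusted p = 0.325 and 0.211), and against NY 0.96 ± 0.54 and -0.34 ± 0.22 (0.310 and 0.482). The sign of every PLL difference of both miR-27 members thus changed when replicate A was left out, and none was called with or without it. In a fit that kept the predicted loci in the library sizes, both were called higher in PLL than in aFM and DZ, where the median annotated miRNA itself stood at a log2 fold change of 2.13 and 1.73.

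miR-24-3p, which both clusters encode, was the one member whose NY libraries did not overlap those of DZ. It stood at 4026, 2948 and 3349 CPM in DZ and at 3942, 3100 and 2732 CPM in aFM. NY held 5557, 4761 and 4460 CPM, and PLL held 7845, 3445 and 3588 CPM. The NY libraries lay above all DZ and aFM libraries, yet neither difference was called. NY against DZ gave a log2 fold change of 0.52 ± 0.33 (SE; adjusted p = 0.600) and NY against aFM 0.60 ± 0.33 (adjusted p = 0.254). In PLL, replicate A lay above all NY libraries and replicates B and C below them. PLL stood at a log2 fold change of 0.53 ± 0.33 against DZ (adjusted p = 0.300) and at -0.014 ± 0.24 without replicate A. Against aFM it stood at 0.61 ± 0.33 (adjusted p = 0.207) and 0.047 ± 0.23 without replicate A, and against NY at 0.012 ± 0.33 (adjusted p = 0.982) and -0.48 ± 0.23.

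**Figure D3:**
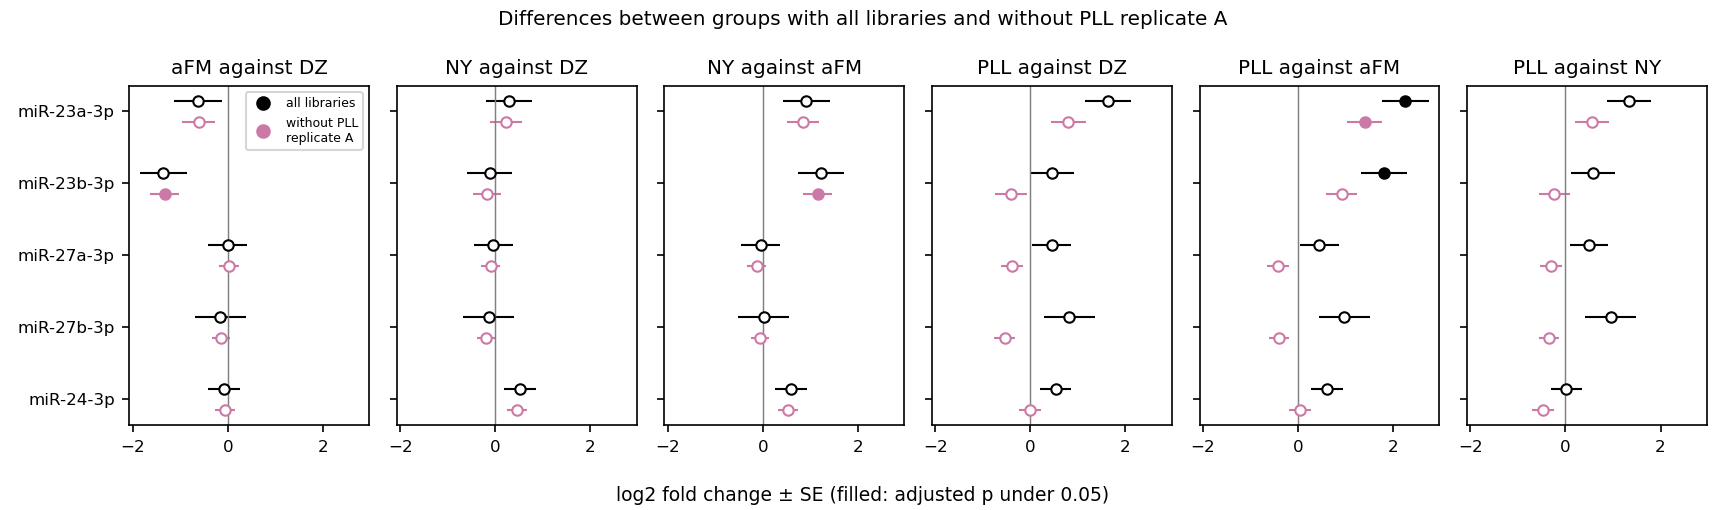
Log2 fold change with its SE for the 5 members in the 6 comparisons, with all libraries (black) and without PLL replicate A (pink); filled points have an adjusted p under 0.05. Every PLL difference lies lower without that library. The PLL differences of miR-27a-3p and miR-27b-3p move from above 0 to below 0 in all 3 comparisons, those of miR-23b-3p and miR-24-3p do so against DZ and NY, and those of miR-23a-3p stay above 0.

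Within a cluster, miR-23 did not keep a fixed proportion to miR-27. In the 23a cluster there were 37.1 ± 6.75 counts of miR-23a-3p per 100 of miR-27a-3p in PLL, against 20.6 ± 1.51 in NY, 16.6 ± 6.80 in DZ and 10.8 ± 2.48 in aFM (SD, n = 3). All PLL libraries (30.7 to 44.1 per 100) lay above all others, and PLL replicate A, at 36.5, lay between replicates B and C. The proportion takes no scaling between libraries. In the 23b cluster there were 9.45 ± 2.12 counts of miR-23b-3p per 100 of miR-27b-3p in aFM, against 22.8 ± 13.4 in DZ, 22.4 ± 7.97 in NY and 20.6 ± 8.36 in PLL. The aFM libraries, at 7.62, 11.8 and 8.95 per 100, were the lowest 3 of the 12, and DZ replicate A came next at 12.5. The 11.8 of aFM replicate B rests on 37 counts of miR-23b-3p, and the 12.5 of DZ replicate A on 34. The gap between these 2 libraries lies within counting error. These proportions were chosen after the levels had been seen and were not tested.

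The paralogs gave a different picture for the 2 families. miR-23a-3p stood at 72.2 ± 2.67 counts per 100 of miR-23b-3p in PLL, against 53.2 ± 14.03 in aFM, 43.5 ± 12.5 in NY and 33.6 ± 14.05 in DZ (SD, n = 3). The PLL libraries lay between 70.4 and 75.3 per 100, above the 22.1 to 69.2 of all others. The 69.2 is aFM replicate A and rests on 18 counts of miR-23a-3p and 26 of miR-23b-3p. Its gap to PLL therefore lies within counting error. miR-27a-3p stood at 39.8 ± 12.1 counts per 100 of miR-27b-3p in PLL, against 46.0 ± 6.76 in aFM, 44.6 ± 4.81 in NY and 41.97 ± 6.32 in DZ, and here all groups overlapped. In PLL replicate A that proportion was 27.1, the lowest of the 12 libraries, and the next lowest was 38.1 in DZ replicate A. No test was run on these ratios between paralogs, and they may depend on how reads that fit both paralogs were counted.

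**Figure D4:**
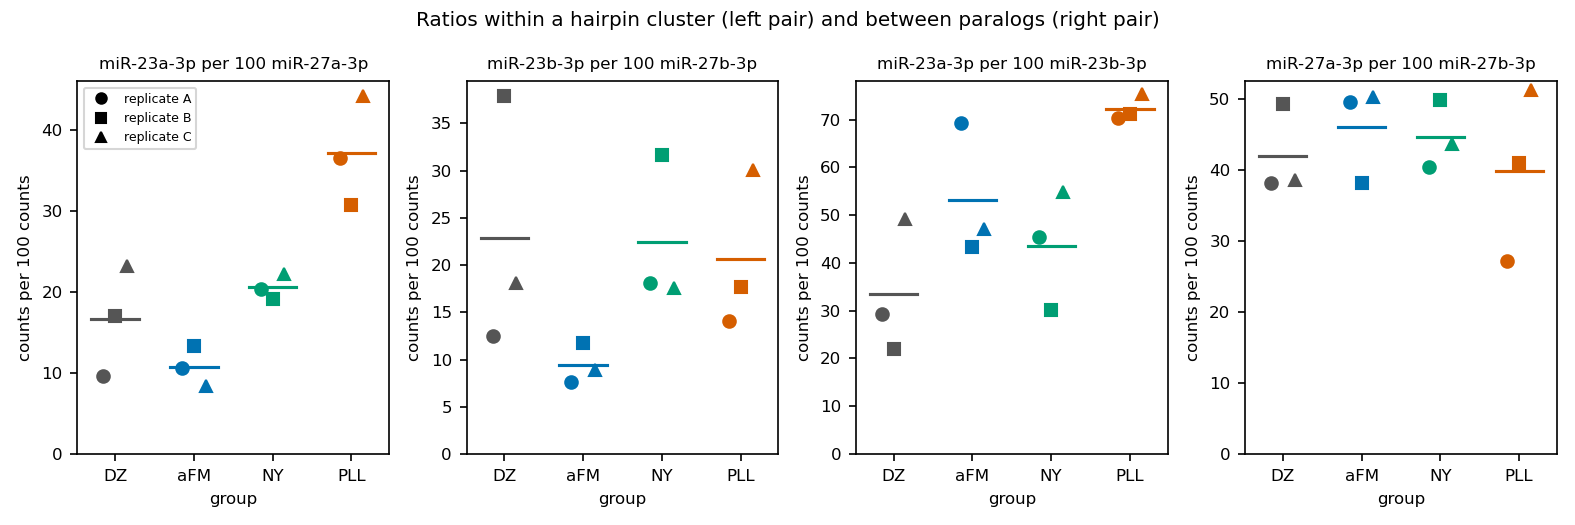
Counts of one member per 100 counts of another in each library (linear axes from 0), within the 23a cluster, within the 23b cluster and between the miR-23 and miR-27 paralogs; horizontal bars are group means. PLL libraries lie highest for miR-23a-3p per miR-27a-3p and per miR-23b-3p, where the gap to aFM replicate A is within counting error. The aFM libraries lie lowest for miR-23b-3p per miR-27b-3p, where the gap to DZ replicate A is within counting error. The groups overlap for miR-27a-3p per miR-27b-3p.

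Across the 12 libraries the log2 levels of miR-27a-3p and miR-27b-3p, paralogs from different clusters, correlated at r = 0.95, and at 0.72 over the 11 libraries without PLL replicate A. For miR-23a-3p and miR-23b-3p the values were 0.79 and 0.60. Pairs from one cluster gave lower values. miR-23a-3p with miR-27a-3p gave 0.58 and, without PLL replicate A, -0.38, and miR-23b-3p with miR-27b-3p gave 0.55 and -0.21. These coefficients are descriptions over libraries that share groups and a scaling. How reads that fit both paralogs were counted is not stated in the sources.

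The miRNAs outside the clusters most like miR-23a-3p over the 12 libraries were miR-146b-5p (r = 0.82), miR-221-3p (0.82) and miR-186-5p (0.80), with 0.79, 0.75 and 0.73 without PLL replicate A. Nearest to miR-24-3p were miR-125b-5p (0.89), miR-100-5p (0.88) and miR-199b-3p (0.85), with 0.80, 0.81 and 0.67 without it. For miR-23b-3p they were miR-103-3p (0.79), miR-140-3p (0.77) and miR-199a-5p (0.70), with 0.58, 0.70 and 0.41 without it. For miR-27a-3p they were miR-100-5p (0.91), miR-152-3p (0.89) and miR-199b-3p (0.89), which fell to 0.48, 0.43 and 0.36. For miR-27b-3p they were miR-199b-3p (0.92), miR-140-3p (0.92) and miR-100-5p (0.91), which fell to 0.45, 0.19 and 0.40. The coefficients of both miR-27 members thus fell below 0.5 when that library was left out.

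The guide strands made up nearly all counts of their hairpins. Over the 12 libraries miR-27b-3p took 99.3% of the counts of both arms of Mir27b (95% exact interval 99.1% to 99.5%), miR-27a-3p 98.6% (98.1% to 99.1%), miR-23a-3p 98.3% (96.8% to 99.2%) and miR-23b-3p 96.6% (95.3% to 97.6%). The intervals cover counting error only. The other arms were sparse, with 43 counts of miR-27b-5p, 36 of miR-23b-5p, 32 of miR-27a-5p and 10 of miR-23a-5p in all, and none of these passed the filter. miR-23a-5p had 7 of its 10 counts in PLL and 3 in aFM, and 0 in DZ and NY. The miR-3074 strands, encoded opposite the miR-24 hairpins, had 2 counts of miR-3074-5p, 2 of miR-3074-1-3p and 0 of miR-3074-2-3p.

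The 5′ arms of miR-24 can be assigned to a cluster by their sequence, as miR-24-3p cannot. miR-24-2-5p, from the 23a cluster, had 135 counts and was found in all 12 libraries, against 11 counts of miR-24-1-5p, from the 23b cluster. It thus took 92.5% of the 5′ arm counts (95% exact interval 86.9% to 96.2%), whereas for miR-23 and miR-27 the 23b cluster gave the more abundant guide. The stability of each strand is set separately, so the 5′ arm counts do not show which cluster supplied miR-24-3p. miR-24-2-5p was the only other arm tested, at 550 ± 77.5 CPM in NY, against 401 ± 106 in aFM, 351 ± 153 in PLL and 240 ± 146 in DZ (SD, n = 3). It was not called in any comparison or in the joint test (adjusted p = 0.308). Its NY libraries lay above its DZ libraries without overlap (log2 fold change 1.19 ± 0.53, adjusted p = 0.334), as those of miR-24-3p did.

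miR-128-3p, best known from neurons, carries the miR-27 seed shifted by a base and is shown for that comparison.
miR-128-3p: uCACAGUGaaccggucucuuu
Its seed is found in miR-27a-3p and miR-27b-3p from base 3. It stood at 3619 ± 804 CPM in aFM, against 2875 ± 307 in NY, 2477 ± 177 in PLL and 2311 ± 504 in DZ (SD, n = 3), and did not pass the joint test (adjusted p = 0.196).

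Lists of miRNAs with related roles were read beside the members, some of which they hold. The call of miR-23a-3p on the lists of Runx2 and of vessel growth is the one given above. Over all tested miRNAs, 9.09% were called in PLL against aFM, 3.79% in PLL against DZ and 6.82% in PLL against NY. Without PLL replicate A these shares were 8.22%, 3.42% and 4.79%. In aFM against DZ 18.9% were called, in NY against aFM 3.79% and in NY against DZ 0.758%. Of 11 miRNAs known to target Runx2, 3 were tested, and in PLL against aFM miR-23a-3p was called and miR-30c-5p and miR-34c-5p were not. The list's median log2 fold change there was 0.42, and 0.47 with the same call without PLL replicate A. None of the 3 was called in the other 5 comparisons.

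Of 9 miRNAs of fat cell differentiation 6 were tested. In PLL against aFM, DZ and NY 1 was called each time, miR-143-3p, as lower (log2 fold change -0.99, -1.13 and -1.14), and without PLL replicate A it was called in all 3 again. The list's medians were 0.39, 0.44 and 0.037, and -0.41, -0.32 and -0.35 without that library. In aFM against DZ 2 were called, miR-378a-3p as higher and miR-21a-5p as lower, with a median of -0.15. NY against aFM had 1, miR-21a-5p, as higher (median 0.064), and NY against DZ 0 (median -0.015).

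Of 11 miRNAs of vessel growth 8 were tested. In PLL against aFM 3 were called, all higher (miR-23a-3p, miR-221-3p and miR-210-3p), with a median of 0.71, and without PLL replicate A 2 were, miR-210-3p no longer passing (adjusted p = 0.0578), with a median of -0.0093. PLL against DZ had 0 called (median 0.79, and 0.40 without that library) and PLL against NY 1, miR-126a-3p, as higher (median 0.50, and 0.11). In aFM against DZ 3 were called, miR-126a-3p and miR-222-3p as higher and miR-210-3p as lower, with a median of -0.27. NY against aFM had 1, miR-126a-3p, as lower (median 0.32), and NY against DZ 0 (median 0.017). The medians of all tested miRNAs are those given above.

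miR-221-3p, which restrains vessel growth through Kit, stood at 4172 ± 552 CPM in PLL and 1899 ± 232 in aFM (log2 fold change 1.14, adjusted p = 0.0140, and 0.95 with 0.0355 without PLL replicate A), with 2460 ± 548 in DZ and 2953 ± 143 in NY (SD, n = 3). Its group means rank in the order of those of miR-23a-3p. miR-21a-5p, on the fat cell list, was lower in aFM than in DZ (log2 fold change -0.58, adjusted p = 0.0415) and higher in NY than in aFM (0.74, adjusted p = 0.0270).

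Markers of other cell types moved between the groups as well, and their part in the levels of the members was not tested. The 6 mesenchymal miRNAs were found in every group, with a summed level of 50619 to 154991 CPM in PLL, against 87000 to 102456 in DZ, 79560 to 95241 in aFM and 94232 to 100245 in NY. Among the 6, only miR-143-3p was called in PLL against aFM, DZ and NY with all libraries, each time as lower in PLL, as given above. The 8 haematopoietic markers summed to 49969 to 72672 CPM in PLL, against 65635 to 143091 in DZ, 50562 to 85649 in aFM and 66695 to 135382 in NY. Of these, miR-142a-3p was at 0 in DZ and NY and miR-144-3p in NY. The 2 endothelial markers summed to 4697 to 5229 CPM in aFM, 1725 to 2360 in PLL, 500.4 to 1445 in DZ and 370.5 to 878 in NY, with miR-126a-5p at 0 in NY. The 2 neural markers, nearly all miR-9-5p, summed to 86962 to 125803 CPM in PLL, 30515 to 36456 in aFM, 7275 to 8345 in NY and 38.5 to 520 in DZ, with miR-124-3p at 0 in DZ. That sum was highest in PLL without overlap, as miR-23a-3p was.

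The other marker lists were low or uneven. The 2 hepatocyte markers summed to 5180 to 10117 CPM in PLL, against 4150.3 to 46811 in DZ, 15718 to 18826 in aFM and 3752 to 3919 in NY. The 3 skeletal muscle markers reached 2522 CPM in NY and at most 808 elsewhere, with miR-133a-3p at 0 in DZ and aFM. The 7 epithelial markers stayed at or below 2255 CPM in every library, with miR-141-3p at 0 in DZ, aFM and NY, miR-429-3p in aFM and PLL, and miR-205-5p in PLL. For none of the 7 lists did the summed levels of the aFM libraries all lie below those of the other groups, as the miR-23b-3p levels did. Single markers could move apart from their sum. In aFM against DZ, where miR-23b-3p was not called, miR-142a-5p, miR-486a-5p and miR-145a-5p were called as lower in aFM. Called as higher there were miR-126a-3p and miR-9-5p. The part of any marker in the level of miR-23b-3p was not tested.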

How the data were processed

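Small RNA counts of 12 vesicle libraries were analysed, grouped by their titles. The deposited values are whole-number counts per mature miRNA name or predicted locus, with no normalization. Per the submitters' processing notes, FastQC, STAR, StringTie and DESeq2 and the build mm39 were used. The miRNA caller and the treatment of reads that fit both paralogs: not given in the sources used here. Rows of 1531 predicted loci, 39.3% to 89.7% of a library's counts, name no gene and entered neither library sizes nor tests.

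The 132 miRNAs kept by filterByExpr (minimum count 10, minimum total 15) were fitted with edgeR 4.0.16 (limma 3.58.1, R 4.3.3) by quasi-likelihood with TMM factors and a term for each of the 4 groups. The 6 pairwise contrasts and the joint test were two-sided. Adjustment was by Benjamini-Hochberg over all 132 miRNAs, with a threshold of 0.05. The SE is the log2 fold change divided by the square root of F. CPM uses the TMM-scaled total of tested miRNAs, at least 98.0% of annotated counts. Likeness is Pearson's r of log2(CPM + 1), with the nearest 3 named. Intervals are Clopper-Pearson (scipy 1.17.1).

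Members and lists were chosen with earlier results of these data known. The naming rule took the members, the other arms of their hairpins, list miRNAs past the joint test or of smallest p, and the nearest miRNAs. Alternatives were RLE, upper quartile and no factors, no filter, DESeq2 1.42.0, the replicate letter as a block, each library left out, and all rows. List values and the members' medians without PLL replicate A, fits of the NY and DZ libraries alone and the ratios of miR-23 to miR-27 were added after seeing the data. Same-letter libraries of NY and DZ deviated together from their group means (r = 0.18, 0.34 and 0.13), which met the criterion for pairing; no label states a pairing. In every group all pairs of libraries differed by more than sampling noise in a chi-square test of their counts. The scripts were tested on simulated data with known changes in aFM and a common spread for all miRNAs. That check does not show how often changes of the members' size would be found.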

Additional observations from a re-analysis of the deposited data

How the results depend on the processing

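With the replicate block the joint test called 0 members (miR-23a-3p adjusted p = 0.0586), beside 13 of 132 miRNAs. PLL against aFM called 1, miR-23a-3p, beside 10 of 132. Only NY and DZ were taken as paired by letter. Same-letter libraries of aFM and DZ also had correlations above 0 (r = 0.23, 0.062 and 0.17 for A, B and C), and in every other pair of groups some were below 0. A replicate block in the NY and DZ libraries alone called 0 members, as without it, beside 1 of 105 miRNAs in each fit. The joint test called 2 members (miR-23a-3p and miR-23b-3p) with upper quartile factors, without the filter and with DESeq2, beside 21 of 132, 38 of 501 and 36 of 132 miRNAs, and 0 to 2 when single libraries were left out (9 to 23 miRNAs). In aFM against DZ upper quartile factors and DESeq2 each called 1 (miR-23b-3p), and single libraries left out gave 0 to 1 (5 to 26 miRNAs), as they did in NY against aFM (1 to 12) and PLL against DZ (4 to 17). DESeq2 called 1 in PLL against DZ (miR-23a-3p), beside 19 of 132 miRNAs. RLE factors called 1 in PLL against aFM (miR-23a-3p), beside 8 of 132, and there single libraries left out gave 0 to 2 (4 to 20 miRNAs).

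With all rows, predicted loci included, the joint test called 5 members beside 79 of 141 annotated miRNAs. PLL against aFM called 5 beside 84 (82 higher), PLL against DZ 4 beside 58 and PLL against NY 2 beside 34, the members' pairwise calls all higher in PLL. In that fit the median annotated miRNA stood at 2.13, 1.73 and 1.49 in these comparisons. Relative to the median of each fit, in PLL against aFM, miR-23a-3p ran from 1.83 with library totals to 2.28 with all rows, and miR-23b-3p from 1.37 to 1.79. Over all miRNAs in aFM against DZ the TMM fit called 25 (12 higher), RLE factors 16 (12 higher), upper quartile factors 23 (8 higher), library totals 8 (7 higher), no filter 15 (9 higher), DESeq2 28 (15 higher), the replicate block 10 (8 higher) and all rows 7 (4 higher). As a share of all counts the members took 0.463% in DZ, 0.370% in aFM, 0.621% in NY and 1.89% ± 1.79 (SD) in PLL.

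Signs changed only for differences that were not called in the TMM fit of all libraries. Some of these were called with all rows, such as miR-27b-3p in PLL against aFM. Leaving out single libraries gave miR-23b-3p -0.41 to 0.81 in PLL against DZ, -0.24 to 0.73 in PLL against NY and -0.37 to 0.27 in NY against DZ. miR-27a-3p ran from -0.39 to 0.50 in PLL against DZ, -0.30 to 0.60 against NY and -0.42 to 0.49 against aFM, and miR-27b-3p from -0.54 to 0.97, -0.34 to 1.16 and -0.40 to 1.10. miR-24-3p ran from -0.014 to 0.53 in PLL against DZ, -0.48 to 0.067 in PLL against NY and -0.29 to 0.073 in aFM against DZ. Near 0 lay miR-27a-3p in aFM against DZ (-0.22 to 0.11), NY against DZ (-0.17 to 0.023) and NY against aFM (-0.27 to 0.050), and miR-27b-3p in NY against aFM (-0.089 to 0.15) and aFM against DZ (-0.32 to 0.017). miR-27a-3p in aFM against DZ was -0.17 with upper quartile factors, -0.028 with the replicate block and -0.41 with all rows; all rows also gave it 0.14 in NY against DZ and 0.55 in NY against aFM, and gave miR-27b-3p 0.050 in NY against DZ. miR-27b-3p in NY against aFM was -0.099 with RLE factors and DESeq2, -0.040 with upper quartile factors, -0.065 with library totals and -0.073 without the filter. miR-24-3p in PLL against NY was -0.022 with RLE factors, -0.020 with DESeq2, -0.0068 with upper quartile factors, -0.11 with library totals, -0.035 without the filter and -0.070 with the replicate block, and in aFM against DZ 0.031 with library totals. The cause of these changes was not tested. Group means of the ratios moved by less than 1 SD in all 56 alternatives. Leaving out a single library cannot move its group mean that far, and scaling cancels within a library. The count therefore does not measure how firm the ratios are.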
